A study of Mus musculus with 18 samples.

Results

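The response of the liver to GW4064, an agonist of the bile acid receptor FXR, was set between mice whose hepatocytes lack FXR (liver knockout) and mice without FXR in any tissue (whole-body knockout). The measure described is the GW4064 minus vehicle effect in liver knockout livers minus that in whole-body knockout livers. A positive difference means that the gene was higher with GW4064, relative to vehicle, in liver knockout than in whole-body knockout mice. Its members are the 12 arrays that the labels assign to these genotypes, of 18 arrays in the series, with 3 arrays per group and 1 liver per array. The groups are liver FXR knockout with GW4064, liver FXR knockout with vehicle, whole-body FXR knockout with GW4064 and whole-body FXR knockout with vehicle, and WT mice with GW4064 and with vehicle supply the other 6 arrays. Per the labels, all mice were male C57BL/6J of 10 to 16 weeks, and GW4064 or vehicle was given by gavage in 2 doses of 150 mg per kg, an evening and a morning dose, with the liver taken 2 hours after the last. The study's methods describe another dosing for its WT mice, and the values do not settle which holds. Liver knockout mice carried a floxed Fxr allele and Cre driven by the albumin promoter, which is active in hepatocytes, so their gut, their other organs and the other cells of their liver kept FXR. The comparison therefore cannot tell FXR of the gut from FXR of other organs or of non-hepatocytes in the liver, and a line that lacks FXR in enterocytes is not analysed here.

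FXR, encoded by Nr1h4, is the nuclear receptor for bile acids. In hepatocytes it induces Nr0b2, the gene for SHP, and SHP holds down the bile acid enzymes Cyp7a1 and Cyp8b1 by acting on LRH-1 at their promoters. In the ileum FXR induces Fgf15, a hormone that reaches the liver, binds Fgfr4 with its coreceptor Klb and signals through the ERK kinases, so that a gut and a liver route end on the same enzymes. Csad, an enzyme that makes taurine for bile acid conjugation, is held down by the same signals.

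The promoters of Nr0b2, Cyp8b1 and Csad are shown because the levels of these genes are the ones the first results turn on. Nr0b2 is a step of the liver route, and Cyp8b1 and Csad stand at the end of both routes. Each run holds 250 bases before to 50 bases after the start of the gene (RefSeq, GRCm38.p6), read on the strand of the gene, and capitals mark matches to the LRH-1 motif (CAAGG, then any base, then CA) on either strand. The windows are chr4:133553126-133553425 on the plus strand for Nr0b2, chr9:121916256-121916555 on the minus strand for Cyp8b1 and chr15:102205003-102205302 on the minus strand for Csad, for which the first of 2 starts in the table was taken.
Nr0b2: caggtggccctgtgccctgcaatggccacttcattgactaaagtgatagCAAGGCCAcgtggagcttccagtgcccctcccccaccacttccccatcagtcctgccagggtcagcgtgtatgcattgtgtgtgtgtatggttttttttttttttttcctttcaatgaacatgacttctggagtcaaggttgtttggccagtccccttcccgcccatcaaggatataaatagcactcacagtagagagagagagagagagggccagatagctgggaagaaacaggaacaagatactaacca
Cyp8b1: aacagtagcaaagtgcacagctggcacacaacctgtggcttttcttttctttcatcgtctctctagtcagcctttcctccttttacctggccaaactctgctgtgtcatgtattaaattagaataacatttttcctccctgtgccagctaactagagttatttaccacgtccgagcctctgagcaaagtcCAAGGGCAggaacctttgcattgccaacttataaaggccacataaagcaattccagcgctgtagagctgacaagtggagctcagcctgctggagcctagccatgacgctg
Csad: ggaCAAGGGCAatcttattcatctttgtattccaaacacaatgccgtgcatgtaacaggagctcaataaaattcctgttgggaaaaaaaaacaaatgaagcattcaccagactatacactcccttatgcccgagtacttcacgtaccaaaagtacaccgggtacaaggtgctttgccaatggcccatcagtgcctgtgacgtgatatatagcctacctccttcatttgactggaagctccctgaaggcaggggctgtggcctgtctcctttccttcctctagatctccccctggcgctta
Each window held 1 match, which began 201 bases before the start in Nr0b2, 60 bases before it in Cyp8b1 and 247 bases before it in Csad. Of 32851 promoters of the same length, 6.71% held such a match. The inverted repeat of AGGTCA with a single base between its arms, a form of the element that FXR binds, was found in 3 promoters (0.00913%) and in none of these windows. A match is a description of the letters only, and Cyp7a1 has no promoter in the table used.

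The targeted gene followed its labels. Nr1h4 lay between 3.98 and 4.69 on the log2 scale in the 12 knockout arrays and between 8.83 and 9.39 in the 6 WT arrays. The median of 10 hepatocyte markers lay between 13.98 and 14.15 in all 18 arrays. Of the arrays in the comparison, whole-body knockout with GW4064 replicate 3 stood apart, with a mean correlation of 0.987 with the arrays of its own group. Relative to the vehicle mean of its genotype, its male-biased liver genes lay at a median of -2.97 and its female-biased liver genes at a median of 2.69, whereas both medians lay between -0.36 and 0.24 in the other 5 knockout arrays with GW4064. For example, the male-biased fatty acid elongase gene Elovl3 read 4.13 in this array, against 8.07 to 11.60 in the other 11 knockout arrays. Its level of the Y-linked genes Kdm5d and Uty, at 6.37 and 6.59, lay within the range of the other 17 arrays, and that of Eif2s3y, at 7.99, lay below their lowest value of 8.17. Xist, at 5.52, lay within their range of 5.19 to 6.11. WT with GW4064 replicate 1 stood apart as well, with the widest spread of relative expression, but enters only the WT values given beside the comparison.

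No gene passed the test of the difference. In limma, 0 of 12394 genes (0%) had an adjusted p under 0.05, while 604 had an unadjusted p under 0.05 (4.87%), 336 of them higher (2.71%) and 268 lower (2.16%) in the liver minus whole-body difference. The study's thresholds combine an unadjusted p under 0.05 with a change of at least 1.5 fold. They left 139 genes (1.12%), of which 70 lay on the higher side (0.565%) and 69 on the lower (0.557%). For GW4064 against vehicle in liver knockout livers, limma gave 0 genes at an adjusted p under 0.05 (0%), 622 at an unadjusted p under 0.05 (5.02%) and 57 at the study's thresholds (0.46%). In whole-body knockout livers it gave 0 (0%), 775 (6.25%) and 67 genes (0.541%) by the same rules. In WT livers, 24 genes passed the adjusted test (0.194%) and 212 the study's thresholds (1.71%). The counts at the study's thresholds rested on single whole-body knockout arrays with GW4064. Without replicate 1, 2 or 3 of that group the difference held 214, 230 or 94 genes, and the whole-body knockout effect 167, 171 or 17. The adjusted count of the difference was 1 without liver knockout GW4064 replicate 1 (Fars2), without liver knockout GW4064 replicate 2 (Alas1) or without whole-body knockout GW4064 replicate 2 (Mfsd4b1). The p-values measure the spread between mice of a group, since the labels give 1 liver per array.

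**Figure D1:**
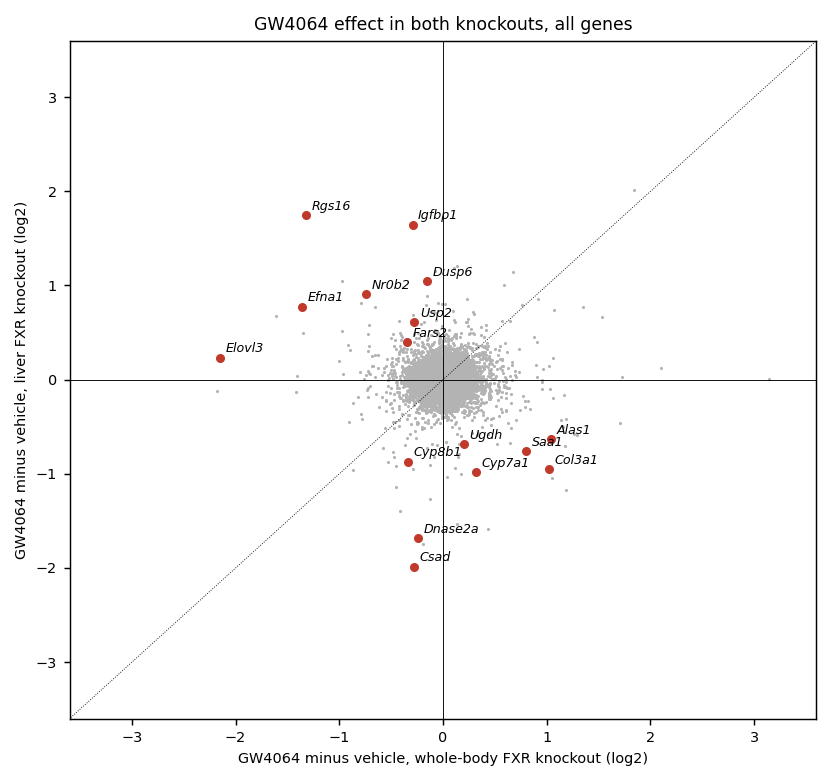
GW4064 minus vehicle (log2) in liver FXR knockout livers (vertical axis) against the same difference in whole-body FXR knockout livers (horizontal axis) for 12394 genes, with the dotted line marking equal effects and 16 genes labelled in red. Csad and Dnase2a lie near 0 on the horizontal axis and below -1.6 on the vertical axis.

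Csad was lower with GW4064 in liver knockout livers, and its arrays overlapped in whole-body knockout livers. In liver knockout livers it read 8.45, 8.94 and 8.17 with GW4064, against 10.21, 10.45 and 10.88 with vehicle. All 3 GW4064 arrays lay below all vehicle arrays, a place held by 6.13% of all genes in this genotype. The whole-body knockout arrays read 10.49, 11.52 and 11.40 with GW4064, against 11.29, 11.66 and 11.28 with vehicle. The effect was -1.99 (SE 0.30) in liver knockout livers, a 3.97 fold lower level, and -0.28 (SE 0.30) in whole-body knockout livers. The difference of the effects was -1.71 (SE 0.43, 95% interval -2.62 to -0.80, adjusted p = 0.616). Neither the difference nor the effect within liver knockout livers passed after adjustment over all genes (adjusted p = 0.0704 for the effect). The effect within that genotype did pass without liver knockout GW4064 replicate 2, at -2.20 (adjusted p = 0.0496), and without whole-body knockout GW4064 replicate 1, at an adjusted p of 0.0201, as well as with array weights (adjusted p = 0.00750) and without both arrays that stood apart (adjusted p = 0.0239). With GW4064 in both, the level of Csad in liver knockout minus whole-body knockout livers was -2.61 (adjusted p = 0.000760), and with vehicle -0.90 (adjusted p = 0.211). The test with GW4064 was passed by 1.80% of all genes. These arrays also enter the difference, so the levels are a description. In WT livers, whose arrays do not enter the difference, Csad read 8.14, 8.59 and 9.49 with GW4064, against 11.38, 11.59 and 11.52 with vehicle.

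Nr0b2 was higher with GW4064 in liver knockout livers and lower in whole-body knockout livers, without passing the adjusted test. With GW4064 it read 8.78, 9.04 and 8.66 in liver knockout livers, against 7.56, 8.01 and 8.18 with vehicle. Whole-body knockout livers had 8.04, 7.77 and 7.04 with GW4064, against 8.77, 8.16 and 8.16 with vehicle. The groups did not overlap in either genotype, with the GW4064 arrays on the higher side in liver knockout livers (6.11% of all genes) and on the lower side in whole-body knockout livers (5.95%). In liver knockout livers the effect was 0.91 (SE 0.34), in whole-body knockout livers it was -0.75 (SE 0.34), and the difference was 1.65 (SE 0.48, adjusted p = 0.815). The difference was 1.36 without whole-body knockout GW4064 replicate 3. In WT livers Nr0b2 read 10.84, 9.59 and 9.04 with GW4064, against 7.85, 7.86 and 8.21 with vehicle, so that the lowest WT array with GW4064 and the highest liver knockout array both read 9.04.

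Neither Cyp7a1 nor Cyp8b1 passed the adjusted test of the difference or of the effect within either knockout. In liver knockout livers all their GW4064 arrays lay below all vehicle arrays, a place held by 6.13% of all genes in this genotype. The effects there were -0.98 (SE 0.69) and -0.87 (SE 0.42). Cyp7a1, which catalyses the first step of bile acid synthesis, read 9.64, 10.04 and 10.17 with GW4064 in liver knockout livers, against 10.38, 11.13 and 11.29 with vehicle. The whole-body knockout arrays read 12.26, 11.19 and 11.17 with GW4064, against 10.85, 11.10 and 11.73 with vehicle. The arrays overlap in whole-body knockout livers and do not overlap in liver knockout livers. Its difference of -1.30 (SE 0.98) had an interval of -3.37 to 0.77, which holds 0 as well as the value of Csad. Cyp8b1, the hydroxylase of cholic acid synthesis, read 11.30, 10.48 and 11.61 with GW4064 in liver knockout livers, against 11.94, 11.96 and 12.11 with vehicle, with no overlap. In whole-body knockout livers its arrays overlapped, at 12.56, 12.48 and 11.77 with GW4064, against 12.80, 12.41 and 12.63 with vehicle. Its difference was -0.53 (SE 0.59, interval -1.78 to 0.71), and -0.21 without liver knockout GW4064 replicate 2. In WT livers the effects were -2.87 for Cyp7a1 and -2.44 for Cyp8b1. Of 19 measured genes of bile acid synthesis, none had an unadjusted p under 0.05 for the difference in either direction, and the list's median was 0.02, beside 0.01 over all genes. Of 19 known FXR targets of the liver, 2 were higher and 1 was lower at that p, beside 2.71% and 2.16% of all genes, and the median was -0.02.

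**Figure D2:**
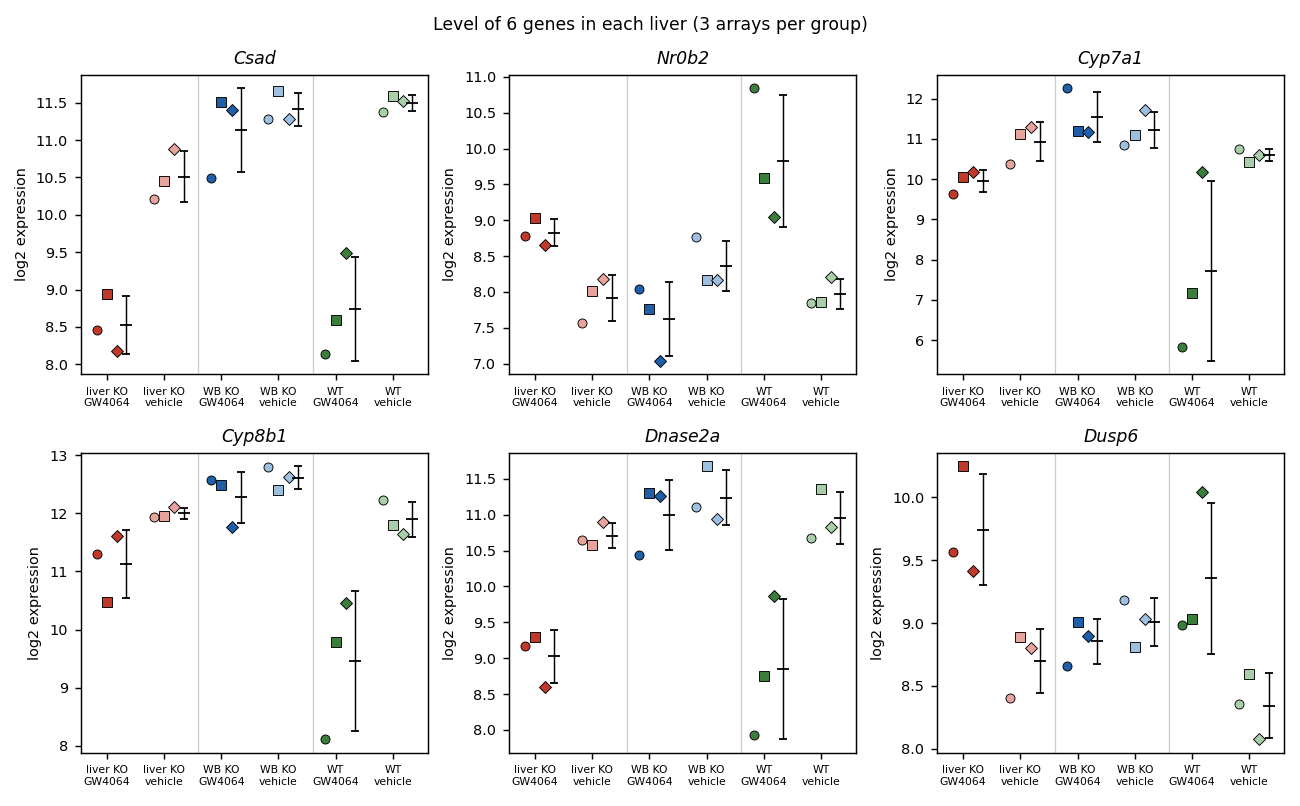
Log2 expression of Csad, Nr0b2, Cyp7a1, Cyp8b1, Dnase2a and Dusp6 in each liver, each gene on its own axis, for liver FXR knockout, whole-body FXR knockout and WT mice with GW4064 and vehicle (circle, square and diamond for replicates 1, 2 and 3, bars for the mean and SD of 3 arrays). The Csad arrays of liver knockout livers with GW4064 lie between 8.17 and 8.94, below the 10.21 to 10.88 of their vehicle arrays, while the whole-body knockout arrays overlap.

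None of the signalling genes between FXR and these enzymes passed the adjusted test. Klb, the FGF15 coreceptor, had a difference of 0.67 (SE 0.28, adjusted p = 0.970), with 8.36, 9.09 and 8.95 in liver knockout livers with GW4064, against 8.12, 8.59 and 8.38 with vehicle. These groups overlap, and its 2 probe sets did not have the same sign. Fgfr4, the receptor itself, had a difference of -0.33 (SE 0.19). Fgf15, which the gut and not the liver makes, lay between 3.95 and 4.70 in all 18 arrays and had a difference of -0.21 (SE 0.16). Mafg, a repressor that FXR induces, had a difference of 0.36 (SE 0.21). Of 9 genes of FXR, SHP and FGF15 receptor signalling, 2 were higher at an unadjusted p under 0.05, namely Nr0b2 and Klb, and none was lower, beside 2.71% and 2.16% of all genes. With replicate 3 of whole-body knockout GW4064 left out, 1 was higher, beside 271 of all 12394 genes.

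Dusp6, a phosphatase that ERK signalling induces and that switches ERK off, was higher with GW4064 in liver knockout livers. It read 9.57, 10.25 and 9.41 with GW4064 there, against 8.41, 8.89 and 8.80 with vehicle, with no overlap. GW4064 arrays lay above all vehicle arrays for 6.11% of all genes in this genotype. In whole-body knockout livers the arrays overlapped, at 8.66, 9.01 and 8.90 with GW4064, against 9.18, 8.81 and 9.03 with vehicle. The difference was 1.20 (SE 0.36, adjusted p = 0.840), and the WT effect, 1.01, was close to the liver knockout effect of 1.04. Beside the same 2.71% of all genes higher and 2.16% lower, 1 of 19 measured immediate early and ERK response genes was higher at an unadjusted p under 0.05 (Dusp6) and 4 were lower, namely Jun (-1.15), Ier3 (-0.40), Atf3 (-0.51) and Myc, whose difference of -1.06 (SE 0.44) came from 6.11, 5.77 and 6.01 with GW4064 in liver knockout livers, against 7.50, 6.50 and 6.70 with vehicle. Without whole-body knockout GW4064 replicate 3, 2 of the 19 were higher and 1 was lower, beside 271 and 245 of all 12394 genes. Atf3 then lay at -0.32.

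Of the bile acid transporters, Abcb11, the bile salt export pump, read 10.87, 10.83 and 11.01 with GW4064 in liver knockout livers, against 11.00, 10.96 and 11.02 with vehicle. Whole-body knockout livers had 10.91, 10.94 and 10.21, against 11.14, 10.95 and 10.93. Its difference of 0.23 (SE 0.20) turned to -0.01 without whole-body knockout GW4064 replicate 3. Slc51a, a basolateral bile acid transporter subunit, read between 4.54 and 4.57 in liver knockout livers with GW4064, against 4.11 to 4.32 with vehicle, a difference of 0.36 (SE 0.13, adjusted p = 0.947) at a low level. Of 11 measured transport genes it was the only one with an unadjusted p under 0.05, beside 2.71% of all genes higher. The list's median was 0.23. Without whole-body knockout GW4064 replicate 3, 3 were higher, beside 271 of all 12394 genes, and the median was 0.13.

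The WT arrays do not enter the difference, so the GW4064 effect in each knockout was set beside the effect in WT. Of the 57 genes past the study's thresholds in liver knockout livers, 39 had the same sign in WT (where 48.8% of all genes lay above 0 and 51.2% below) and 19 (33.3%) an unadjusted p under 0.05 in the same direction, and 4 had one in the opposite direction. The share of all genes at that p in WT was 6.17% higher and 6.45% lower. At the study's thresholds in both, 16 genes were shared, 28.1% of the 57 and 7.55% of the 212. Of the 67 genes of whole-body knockout livers, 31 had the same sign in WT, 6 (8.96%) an unadjusted p under 0.05 in the same direction and 4 in the opposite one. At the study's thresholds in both, 5 were shared, 7.46% of the 67 and 2.36% of the 212. Without both arrays that stood apart, the genes with an unadjusted p under 0.05 in the same direction in WT were 21 of 66 (31.8%) in liver knockout livers, against 2 of 21 (9.52%) in whole-body knockout livers. Across all 12394 genes, which are not independent, the correlation of the liver knockout with the WT effect was 0.114, and that of the whole-body knockout with the WT effect was 0.130, and without both arrays these were 0.145 and 0.0169. These effects share no array with WT, only the estimate of the spread. The liver knockout count shared with WT at the study's thresholds lay between 11 and 21 when each knockout array was left out, and the whole-body knockout count between 0 and 13, with 13, 12 and 1 when GW4064 replicate 1, 2 or 3 of that genotype was left out and 0, 3 and 8 when vehicle replicate 1, 2 or 3 was.

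The 19 genes at the study's thresholds in liver knockout livers and at an unadjusted p under 0.05 in the same direction in WT livers were 13 that were lower and 6 that were higher with GW4064. They were chosen on the liver knockout effect, so their liver minus whole-body differences are given as a description. Their effect in whole-body knockout livers had the same sign for 11 and the opposite one for 8, where 45.9% of all genes lay above 0 and 54.1% below, with an unadjusted p under 0.05 in the same direction for Trim24, at 0.67, and in the opposite direction for Nr0b2. The share of all genes at that p there was 2.88% higher and 3.37% lower. The GW4064 and vehicle arrays did not overlap for 14 of them in liver knockout livers (6.11% of all genes above and 6.13% below) and for 14 in WT livers (7.06% and 7.64%), counts that the choice of the genes raises. In whole-body knockout livers they did not overlap for 1 (4.39% and 5.95%).

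Among those that were lower besides Csad was Dnase2a, a lysosomal nuclease. It read 9.18, 9.30 and 8.60 with GW4064 in liver knockout livers, against 10.64, 10.58 and 10.91 with vehicle, and in whole-body knockout livers 10.43, 11.31 and 11.26 with GW4064, against 11.10, 11.67 and 10.94 with vehicle. The arrays of liver knockout livers lay apart and those of whole-body knockout livers overlapped. The effects were -1.69 (SE 0.37) in liver knockout, -0.24 (SE 0.37) in whole-body knockout and -2.11 in WT livers, with a difference of -1.45 (SE 0.52, adjusted p = 0.947). Ugdh, which makes the UDP-glucuronic acid used in glucuronidation, read 11.07, 10.74 and 10.93 with GW4064 in liver knockout livers, against 11.56, 11.49 and 11.74 with vehicle. The whole-body knockout arrays read 12.07, 11.72 and 12.09 with GW4064, against 11.58, 11.74 and 11.95 with vehicle. The liver knockout arrays did not overlap and the whole-body knockout arrays did. Its difference of -0.89 (SE 0.19, adjusted p = 0.366) was the second in rank among the lower genes, and its WT effect was -0.51. Lipid genes were Fabp5, a fatty acid carrier, Me1, which supplies NADPH, Acss2, which makes acetyl-CoA from acetate, and Fdps and Dhcr7 of cholesterol synthesis. Their effects lay between -1.26 and -0.68 in liver knockout livers and between -0.47 and -0.11 in whole-body knockout livers. In WT livers they lay between -1.46 and -0.62. Without whole-body knockout GW4064 replicate 1 the differences of Acss2, Fdps and Dhcr7 went from -0.35, -0.33 and -0.58 to -0.01, 0.08 and -0.34. With each knockout array left out, that of Fabp5 lay between -1.29 and -0.97 and that of Me1 between -0.90 and -0.47. Foxq1 and Hhex, both transcription factors, had effects of -1.14 and -0.82 in liver knockout livers, -0.46 and -0.09 in whole-body knockout livers, and -1.05 and -0.47 in WT livers. Ctse, a protease, and Ddc, an amine-forming decarboxylase, lay at -0.66 and -0.60, at 0.03 and 0.18, and at -0.63 and -0.81 in the same order of genotypes. The other probe set of Ctse had the other sign, at 0.39 in liver knockout and 0.11 in WT livers.

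Of those that were higher, Nr0b2 and Dusp6 are given above. Usp2, a deubiquitinase whose level follows the clock, read 8.50, 8.85 and 8.93 with GW4064 in liver knockout livers, against 7.93, 8.28 and 8.24 with vehicle, and these groups do not overlap. Whole-body knockout livers had 7.46, 7.20 and 6.92 with GW4064, against 7.19, 7.63 and 7.58 with vehicle. Its difference was 0.88 (SE 0.30, adjusted p = 0.937), and in WT livers it read 9.24, 9.72 and 9.57 with GW4064, against 7.57, 8.58 and 8.14 with vehicle. Trim24, a cofactor of nuclear receptors, had effects of 1.15 in liver knockout, 0.67 in whole-body knockout and 1.13 in WT livers, so its difference was 0.48 (SE 0.42). Its 3 whole-body knockout arrays with GW4064 read 6.98, 7.26 and 8.39, and the highest is replicate 3. Map2k6, a kinase of the p38 pathway, and Morc3, a chromatin protein, had differences of 0.80 and 0.38, and that of Morc3 was 0.14 and 0.65 without whole-body knockout GW4064 replicate 1 or 3. Without whole-body knockout GW4064 replicate 3 the difference of Trim24 was 0.90, and without replicate 1 it was 0.19. The genes of this set other than Csad, Nr0b2, Ugdh, Dhcr7, Me1, Dusp6, Hhex and Dnase2a were picked after their values were seen.

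**Figure D3:**
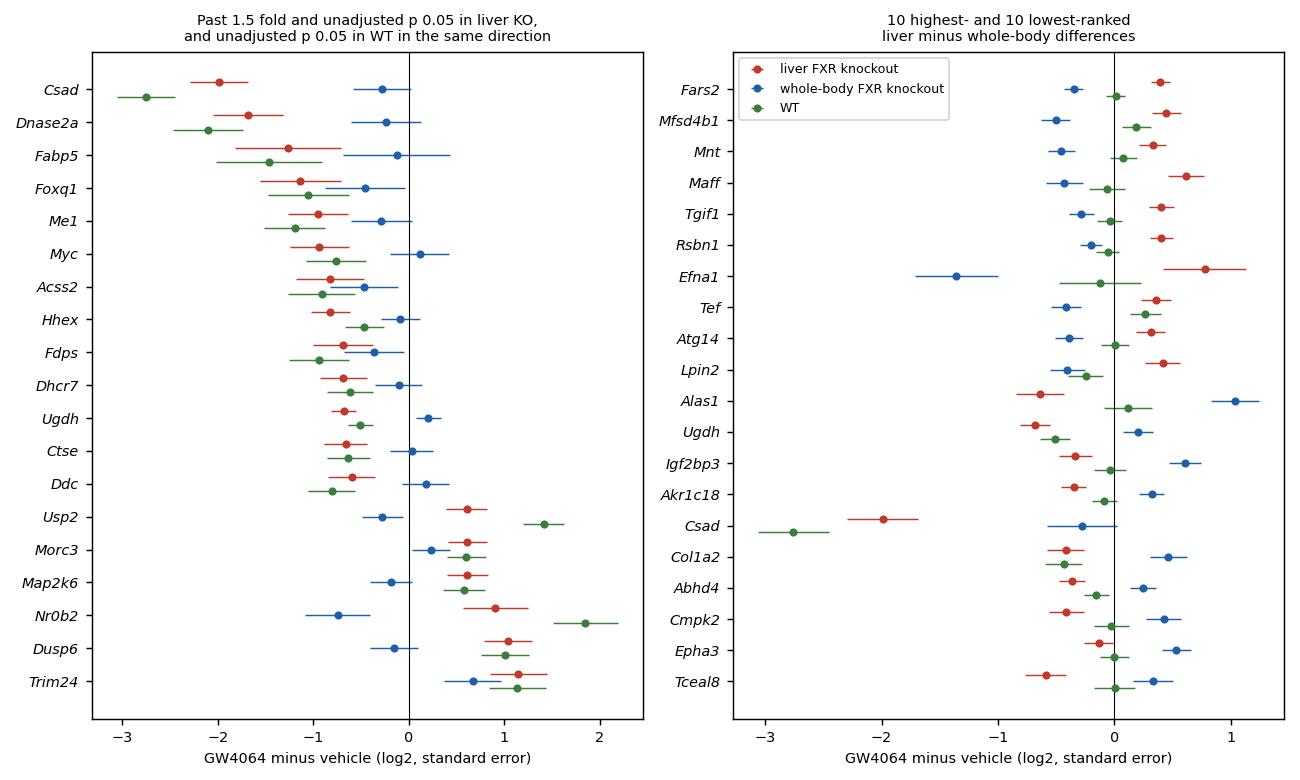
GW4064 minus vehicle (log2, point and standard error) in liver FXR knockout, whole-body FXR knockout and WT livers for the 19 genes found in liver knockout and WT livers (left) and the 20 genes ranked highest and lowest in the liver minus whole-body difference (right). On the left the liver knockout and WT points lie on the same side of 0 for each gene, as the choice of genes requires, and on the right the WT points lie between -0.25 and 0.27 for the 10 genes with positive differences.

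The 20 genes ranked by the difference itself did not pass the adjusted test either. Their effects had opposite signs in the knockouts for 10 of 10 genes with positive and 9 of 10 with negative differences. The choice of the genes by the difference raises these counts. In WT livers none of the positive ones had an unadjusted p under 0.05, against 3 of the negative ones (Csad, Ugdh and Col1a2). The share of all genes at that p in WT was 6.17% higher and 6.45% lower. For 5 of the positive and 7 of the negative genes the vehicle levels of the knockouts already differed at an unadjusted p under 0.05, beside 12.2% of all genes. With GW4064 in both knockouts, 4 of the positive and 6 of the negative genes differed at an adjusted p under 0.05, beside 1.80% of all genes. These are the arrays the difference is built from, so the levels are a description.

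Fars2, the phenylalanyl-tRNA synthetase of mitochondria, had the smallest p. It read 8.53, 8.81 and 8.71 with GW4064 in liver knockout livers, against 8.17, 8.41 and 8.29 with vehicle, and in whole-body knockout livers 8.10, 8.11 and 8.04 with GW4064, against 8.39, 8.49 and 8.42 with vehicle. The GW4064 arrays lay above the vehicle arrays in liver knockout livers (6.11% of all genes) and below them in whole-body knockout livers (5.95%). The difference was 0.74 (SE 0.12, interval 0.50 to 0.99, adjusted p = 0.101), a ratio of 1.67 fold, and both its probe sets had the same sign. It passed the test with array weights (adjusted p = 0.0302), after quantile normalization (adjusted p = 0.0428) and without liver knockout GW4064 replicate 1 (adjusted p = 0.0294). In WT livers it read 8.23, 8.33 and 8.42 with GW4064, against 8.35, 8.30 and 8.29 with vehicle.

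Alas1, the first enzyme of heme synthesis, had the smallest p of the negative differences, at -1.68 (SE 0.29, interval -2.29 to -1.06, adjusted p = 0.158). It read 11.44, 12.24 and 11.65 with GW4064 in liver knockout livers, against 12.19, 12.68 and 12.37 with vehicle. The whole-body knockout arrays read 11.97, 12.10 and 11.98 with GW4064, against 10.52, 11.26 and 11.14 with vehicle. The group that stands apart is whole-body knockout with vehicle. Vehicle levels were 1.44 higher in liver than in whole-body knockout livers (adjusted p = 0.00673), and with GW4064 the knockouts differed by -0.24. WT livers held between 11.66 and 12.15 in all 6 arrays. Without liver knockout GW4064 replicate 2 the difference was -1.91 (adjusted p = 0.0311).

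For Efna1, an ephrin ligand, 2 of the 3 whole-body knockout vehicle arrays were the highest of all 18. It read 7.15, 7.82 and 7.52 with GW4064 in liver knockout livers, against 6.17, 6.88 and 7.12 with vehicle, and in whole-body knockout livers 7.38, 6.69 and 8.06 with GW4064, against 9.49, 8.72 and 7.99 with vehicle. Its difference was 2.13 (SE 0.50, adjusted p = 0.505), and the vehicle levels differed by -2.01 (adjusted p = 0.0219). Epha3, an ephrin receptor, had a difference of -0.67 (SE 0.18) at levels of 3.56 to 3.85 in liver knockout livers and 3.96 to 5.01 in whole-body knockout livers, and 1 of its 3 probe sets had the other sign.

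The remaining positive genes lay between 0.60 and 1.05. Mfsd4b1, a membrane transporter, read 8.07, 8.12 and 8.27 with GW4064 in liver knockout livers, against 7.50, 7.90 and 7.73 with vehicle. Whole-body knockout livers had 7.18, 7.58 and 7.05 with GW4064, against 7.85, 7.77 and 7.69 with vehicle. The groups did not overlap in either genotype, with GW4064 above in liver knockout livers (6.11% of all genes) and below in whole-body knockout livers (5.95%). The difference was 0.95 (SE 0.18, adjusted p = 0.241). It passed without whole-body knockout GW4064 replicate 2, at 1.10 (adjusted p = 0.0355). Mnt, a partner of MAX that represses MYC targets, had a difference of 0.78, and the small MAF protein gene Maff one of 1.05. Tgif1, a homeobox repressor, had a difference of 0.69, the autophagy gene Atg14 one of 0.70, Lpin2, a phosphatidate phosphatase, one of 0.82 and Rsbn1 one of 0.60. The remaining negative genes lay between -0.94 and -0.61. They were Igf2bp3, an RNA-binding protein, at -0.94, Tceal8 at -0.92, Cmpk2, a mitochondrial nucleotide kinase that interferon induces, at -0.84, Akr1c18, a steroid dehydrogenase, at -0.67, and Abhd4, a lipase, at -0.61, besides the collagen gene Col1a2 described below.

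Further genes were named for the effect within 1 knockout. Among liver knockout genes, Etfbkmt, a mitochondrial methyltransferase, had a difference of 0.41 (SE 0.28), Stbd1, a glycogen-binding protein, one of 0.53 (SE 0.18) and Frmd4b one of 1.04 (SE 0.28). Without liver knockout GW4064 replicate 3 the GW4064 effect of Etfbkmt in that genotype was 1.26 (adjusted p = 0.0299). Cish, a target of STAT5, read 7.34, 7.77 and 8.53 with GW4064 in liver knockout livers, against 9.81, 9.22 and 9.38 with vehicle, and in whole-body knockout livers 9.09, 8.73 and 7.66 with GW4064, against 7.75, 8.60 and 7.83 with vehicle. Its difference was -2.02 (SE 0.59, adjusted p = 0.815). In whole-body knockout livers, the transferrin receptor gene Tfrc was 1.35 higher with GW4064, beside 0.78 in liver knockout livers, and the tubulin gene Tubb6, the collagenase gene Mmp13 and Igf2bp3 were 1.06, 0.69 and 0.61 higher. The differences of Tubb6 and Mmp13 were -0.83 and -0.60, and -0.32 and -0.34 without GW4064 replicate 3 of that group. The glucosylceramidase gene Gba2, the mitochondrial carrier gene Slc25a47 and Smad6, an inhibitor of BMP signalling, had effects of -0.65, -0.63 and -0.66 there. Their differences were 0.68, 0.89 and 0.91. The other probe set of Gba2 had the other sign, with an effect of 0.11 and a difference of -0.09. Without whole-body knockout GW4064 replicate 2 the effects of Tfrc, Mmp13 and Slc25a47 in that genotype passed the test, at 1.69 (adjusted p = 0.0316), 0.98 (adjusted p = 0.0316) and -0.85 (adjusted p = 0.0439). Rgs16, a regulator of G protein signalling picked after its values were seen, had a difference of 3.07 (SE 0.79, adjusted p = 0.616). It read 9.76, 9.10 and 9.82 with GW4064 in liver knockout livers, against 6.94, 7.85 and 8.66 with vehicle, and 7.37, 8.70 and 6.61 with GW4064 in whole-body knockout livers, against 8.19, 8.85 and 9.60 with vehicle.

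**Figure D4:**
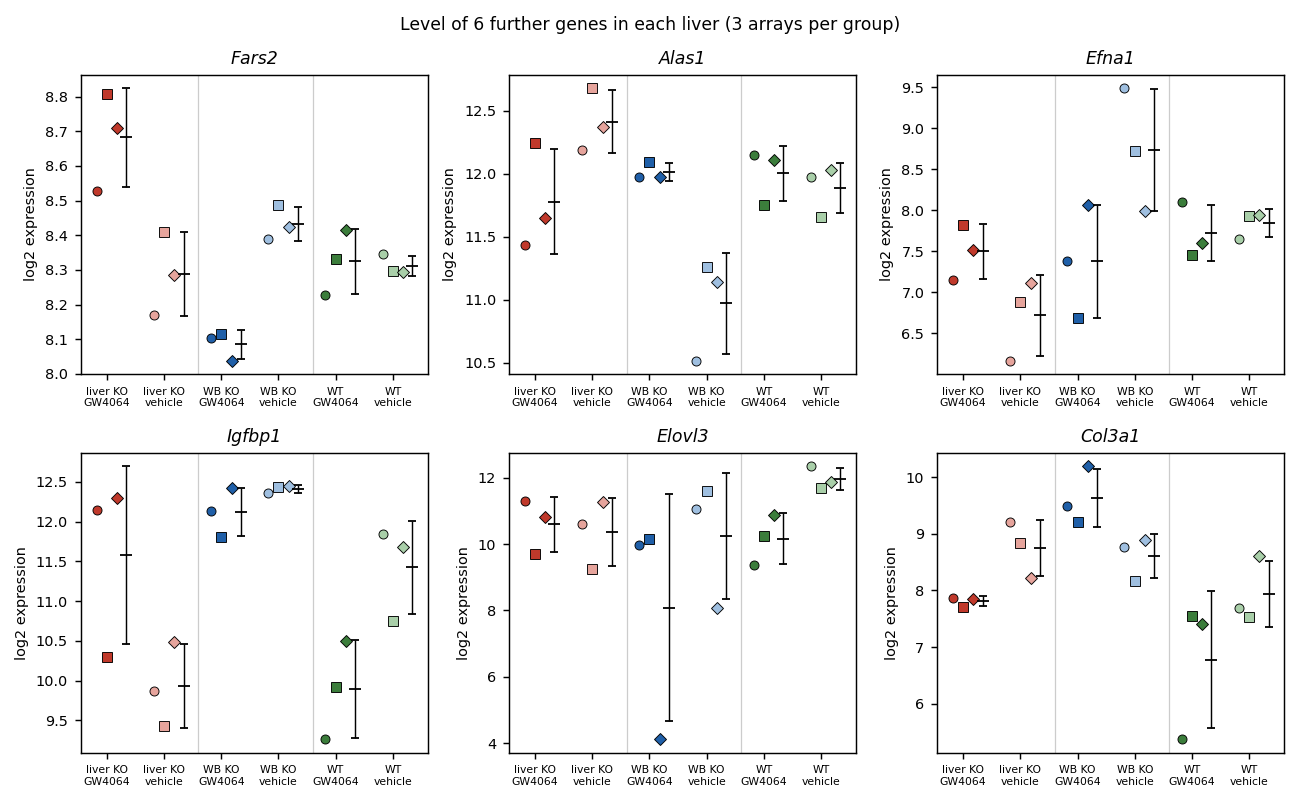
Log2 expression of Fars2, Alas1, Efna1, Igfbp1, Elovl3 and Col3a1 in each liver, each gene on its own axis, for liver FXR knockout, whole-body FXR knockout and WT mice with GW4064 and vehicle (circle, square and diamond for replicates 1, 2 and 3, bars for the mean and SD of 3 arrays). Fars2 lies at 8.53 to 8.81 with GW4064 in liver knockout livers and at 8.04 to 8.11 in whole-body knockout livers, on opposite sides of the vehicle arrays, and Elovl3 reads 4.13 in a single whole-body knockout array.

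Of 20 measured clock genes and clock outputs, 8 were higher and 3 lower at an unadjusted p under 0.05, beside 2.71% and 2.16% of all genes, and the median difference was 0.36. On the higher side, Dbp and Tef, transcription factors driven by the clock, had differences of 1.48 (SE 0.61) and 0.77 (SE 0.19), and Hlf of the same family one of 0.60 (SE 0.19). Per3 had a difference of 0.72, the REV-ERB genes Nr1d1 and Nr1d2 differences of 0.78 and 0.54, Rora one of 0.42 and Usp2 one of 0.88. Arntl, the gene for BMAL1, and its relative Npas2 were on the lower side, at -1.13 (SE 0.35) and -0.69 (SE 0.29), with Alas1 as the third. Tef read 9.33, 9.57 and 9.25 with GW4064 in liver knockout livers, against 8.94, 9.18 and 8.95 with vehicle, and in whole-body knockout livers 8.49, 8.43 and 8.38 with GW4064, against 8.70, 8.96 and 8.88 with vehicle. Arntl read 6.25, 5.88 and 6.44 with GW4064 in liver knockout livers, against 6.78, 6.37 and 6.71 with vehicle, and in whole-body knockout livers 8.00, 8.17 and 8.39 with GW4064, against 7.98, 7.37 and 7.10 with vehicle. The whole-body knockout level of Arntl with GW4064 lay above every liver knockout and every WT array. Dbp, Per3, Nr1d2, Rora and Npas2 were picked after their values were seen. Per array, the list's median relative to vehicle was 0.17, 0.34 and 0.18 in liver knockout livers with GW4064, against -0.18, -0.04 and -0.16 in whole-body knockout livers with GW4064. Without whole-body knockout GW4064 replicate 3, 6 were higher and 2 lower, beside 271 and 245 of all 12394 genes. The median was then 0.35, and Nr1d1 lay at 0.50. Without liver knockout vehicle replicate 1 the median was 0.24.

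Of 17 measured genes of gluconeogenesis and the insulin response, 6 were higher at an unadjusted p under 0.05 and none was lower, beside 2.71% and 2.16% of all genes, with a median of 0.47, and the median effect was 0.20 in liver knockout livers, against -0.16 in whole-body knockout livers. Igfbp1, a secreted binding protein that insulin holds down, read 12.14, 10.29 and 12.30 with GW4064 in liver knockout livers, against 9.87, 9.43 and 10.49 with vehicle. The whole-body knockout arrays read 12.13, 11.81 and 12.42 with GW4064, against 12.36, 12.44 and 12.44 with vehicle. The liver knockout arrays overlap through GW4064 replicate 2, and the vehicle arrays of that genotype are the low ones, with a liver minus whole-body knockout difference of -2.48 (adjusted p = 0.0219). Its difference was 1.94 (SE 0.62, adjusted p = 0.878), and its WT effect had the other sign, at -1.53. Without liver knockout GW4064 replicate 2 its effect in that genotype was 2.29 (adjusted p = 0.0496). Pck1, the entry enzyme of gluconeogenesis, had a difference of 0.51, Irs2, an insulin receptor substrate, one of 0.50, the glycogen synthase gene Gys2 one of 0.63, and the pseudokinase genes Trib1 and Trib3 differences of 0.60 and 0.69, of which Pck1 and Trib1 were picked after their values were seen. Without whole-body knockout GW4064 replicate 3, 5 were higher and none was lower, beside 271 and 245 of all 12394 genes. The median was then 0.31, and Gys2 lay at 0.37.

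Fatty acid oxidation and PPARalpha target genes held 3 of 27 on the higher side at an unadjusted p under 0.05 and none on the lower. The shares of all genes were 2.71% and 2.16%, and the list's median was 0.12. Angptl4, a lipase inhibitor, read 10.56, 10.09 and 10.67 with GW4064 in liver knockout livers, against 9.65, 9.92 and 10.02 with vehicle, and in whole-body knockout livers 9.06, 9.94 and 8.63 with GW4064, against 10.12, 10.10 and 9.57 with vehicle. Its difference was 1.30 (SE 0.36, adjusted p = 0.708), and Hadha and Bdh1, enzymes of beta-oxidation and of ketone body formation, had differences of 0.30 and 0.44, that of Hadha being 0.18 without whole-body knockout vehicle replicate 1. Of 19 cholesterol synthesis and uptake genes, none had an unadjusted p under 0.05, and the medians were -0.14 for the difference, -0.32 in liver knockout, -0.26 in whole-body knockout and -0.44 in WT livers. Whole-body knockout GW4064 replicate 1 lay at a median of 0.37, against -0.56 and -0.51 in replicates 2 and 3, and the liver knockout arrays lay between -0.43 and -0.20. The median difference was 0.18 without whole-body knockout GW4064 replicate 1. Fatty acid and triglyceride synthesis held 1 of 20 on the higher side at an unadjusted p under 0.05, the acyltransferase gene Dgat2 at 0.32. The share of all genes was 2.71%. The list's median was 0.04, and 0.26 without the same array.

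Markers of other liver cells are given next to these results. In RNA of whole liver, fewer cells of a type and less RNA per cell cannot be told apart. Of 19 endothelial markers, 4 were higher in the difference at an unadjusted p under 0.05, beside 2.71% of all genes. They were Tek, Bmp2, Clec4g and Ptprb, at 0.41 to 0.73. The other probe set of Clec4g, with a mean level of 4.79, had the other sign, at -0.24. Of the 19, 17 lay above 0, beside 52% of all genes, and the median was 0.26. Per array the list lay at -0.15, 0.00 and 0.12 relative to vehicle in liver knockout livers with GW4064, against -0.17, -0.11 and -0.49 in whole-body knockout livers with GW4064. Without replicate 3 of that group none of the 19 had an unadjusted p under 0.05, and the median was 0.16. In WT livers 14 of the 19 were lower with GW4064 at that p, beside 6.45% of all genes, with a median of -0.35. Per array the list lay at -0.65, -0.22 and -0.10 there, the lowest being replicate 1, which stood apart. Of 14 stellate cell and fibroblast markers, 3 were lower at an unadjusted p under 0.05, beside 2.16% of all genes, while the median of the list was 0.04. They were the fibrillar collagens Col1a1 (-0.87, SE 0.28), Col1a2 (-0.88, SE 0.23) and Col3a1 (-1.97, SE 0.64). Col3a1 read 7.87, 7.71 and 7.84 with GW4064 in liver knockout livers, against 9.20, 8.85 and 8.23 with vehicle, and in whole-body knockout livers 9.50, 9.20 and 10.19 with GW4064, against 8.77, 8.16 and 8.89 with vehicle. The groups did not overlap in either genotype, with the GW4064 arrays below in liver knockout livers (6.13% of all genes) and above in whole-body knockout livers (4.39%). With GW4064 in both, the level of Col3a1 in liver knockout minus whole-body knockout livers was -1.82 (adjusted p = 0.0489), a test that 1.80% of all genes passed. Its arrays also enter the difference by which the gene was named, so the level is a description. In WT livers 9 of the 14 markers were lower with GW4064 at an unadjusted p under 0.05, beside 6.45% of all genes, with a median of -0.44. The WT effects of Col1a1, Col1a2 and Col3a1 were -0.34, -0.44 and -1.16. All 3 collagen genes remained lower in the difference without whole-body knockout GW4064 replicate 3, at -0.62, -0.81 and -1.69. Of 16 Kupffer cell and macrophage markers none had an unadjusted p under 0.05, with a median of -0.08, and 0.15 without that replicate, where the list lay 0.52 above vehicle. Neutrophil, T and NK cell, B cell, cholangiocyte and erythroid markers had medians between 0.01 and 0.07 and at most 1 gene each at that p, and hepatocyte markers had none of 10 and a median of 0.03. Of 11 pancreas and gut markers, 1 was higher at that p, beside 2.71% of all genes, namely Fabp2 at 0.96, which the liver also expresses. The part of these cells in the results above was not tested.

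**Figure D5:**
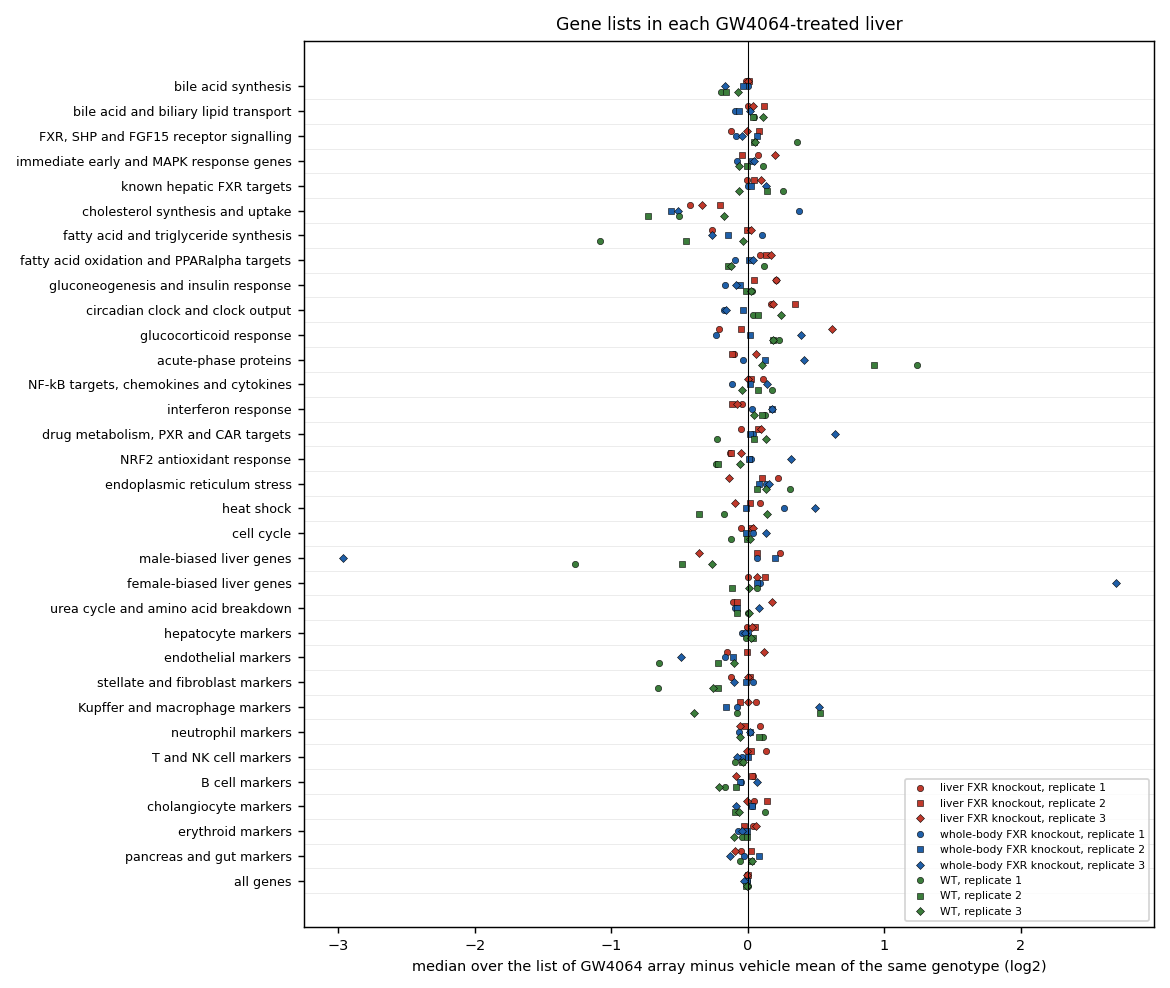
Median over each gene list of the GW4064 array minus the vehicle mean of the same genotype (log2, horizontal axis) for 32 lists and all genes, with liver FXR knockout, whole-body FXR knockout and WT mice in colour and the replicate as the shape of the point. Whole-body knockout replicate 3 lies at -2.97 for male-biased and at 2.69 for female-biased liver genes, and the clock list lies above 0 in all 3 liver knockout arrays and below 0 in all 3 whole-body knockout arrays.

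In WT livers 21 of 27 acute-phase genes were higher with GW4064 at an unadjusted p under 0.05, beside 6.17% of all genes, with a median of 0.75. Per array the list lay at 1.24, 0.92 and 0.11 above vehicle in WT livers with GW4064, and the highest of these is replicate 1, which stood apart. Their median was -0.08 in liver knockout livers, against 0.17 in whole-body knockout livers. In the difference, 22 of 27 lay below 0, beside 48% of all genes, with a median of -0.25 that became -0.05 without whole-body knockout GW4064 replicate 3. The 1 gene at an unadjusted p under 0.05 was Saa1, at -1.56 (SE 0.71), beside 2.16% of all genes on the lower side. Saa1 read 12.70, 10.70 and 12.94 in liver knockout livers with GW4064, against 13.07, 13.08 and 12.48 with vehicle. Whole-body knockout livers had 12.46, 12.36 and 12.81 with GW4064, against 11.30, 11.97 and 11.96 with vehicle. The difference of Saa1 was -0.86 without liver knockout GW4064 replicate 2. No acute-phase gene was at that p without whole-body knockout GW4064 replicate 3. Interferon response genes held 4 of 20 on the lower side, namely Usp18 (-0.84), Ifit1 (-1.01), Oasl1 (-0.66) and Rsad2 (-1.06), and none on the higher, beside 2.16% and 2.71% of all genes, with a median of -0.19. With whole-body knockout GW4064 replicate 3 left out, 1 was lower, beside 245 of all 12394 genes. The median was then -0.18 and Rsad2 lay at -0.43. NF-kB targets, chemokines and cytokines held 3 of 23 on the higher side, beside 2.71% of all genes, namely Nfkbia (0.61), Ccl5 (0.42) and Il1b (0.54). The median of that list was 0.00, and -0.15 without whole-body knockout GW4064 replicate 1.

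NRF2 antioxidant genes had a median of -0.25, and -0.14 without whole-body knockout GW4064 replicate 3. Of 16, 2 were lower at an unadjusted p under 0.05, beside 2.16% of all genes, the epoxide hydrolase gene Ephx1 (-0.67, SE 0.19) and the sulfiredoxin gene Srxn1 (-0.75, SE 0.29). Srxn1 read 8.56 in that array, against 7.68 and 7.35 in the other whole-body knockout livers with GW4064, and its difference was -0.40 without the array. Ephx1 read 11.33, 11.29 and 11.36 with GW4064 in liver knockout livers, against 11.87, 11.77 and 11.88 with vehicle, with an effect of -0.52 there and -0.56 in WT livers, against 0.15 in whole-body knockout livers. Heat shock genes had a median of -0.24. Of 12, Dnajb1 alone was lower at an unadjusted p under 0.05, at -0.69, beside 2.16% of all genes. Without the array the median was -0.14 and Dnajb1 lay at -0.44. Of 22 drug metabolism genes, Cyp2c37 was higher (0.87) and Cyp2c55 lower (-1.88) at an unadjusted p under 0.05. The shares of all genes were 2.71% and 2.16%. The median was -0.04, and Cyp2c55 lay at -1.24 without the array. Endoplasmic reticulum stress genes held 2 of 22 on the higher side (Herpud1 and Trib3) and Atf3 on the lower at an unadjusted p under 0.05, beside 2.71% and 2.16% of all genes. The cell cycle list held Ccnd1 alone among 22 at that p, at -1.66, beside 2.16% of all genes on the lower side. Its difference was -0.99 without whole-body knockout GW4064 replicate 3. Ccnd1 read 9.54 in that array, against 7.75 and 7.30 in the other whole-body knockout livers with GW4064.

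The medians of the sex-biased lists were near 0 without that array. The median of 9 male-biased genes was 1.03, and -0.07 without it, and that of 11 female-biased genes was -0.53, and 0.01 without it. None of these genes had an unadjusted p under 0.05 with all arrays. Without it, 1 male-biased gene was lower at that p, beside 245 of all 12394 genes. Glucocorticoid response genes held none of 14 at an unadjusted p under 0.05, with a median of 0.17. That median was -0.15 without either whole-body knockout GW4064 replicate 1 or liver knockout GW4064 replicate 3. Urea cycle and amino acid genes held Csad alone among 23 at that p, beside 2.16% of all genes on the lower side.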

How the data were processed

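The deposited file of each array held log2 expression values per probe set that the authors had made with robust multi-array averaging (RMA), whose version is not given in the sources used here. The study's methods name another array type than the probe set identifiers do. Of 22690 probe sets, 20393 carried 1 gene symbol in the platform annotation, 691 carried several and 1606 none, and only those with 1 symbol were used. The probe set with the highest mean represented each of 12394 genes, 4958 of which had several.

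Linear models with 6 group means were fitted to all 18 arrays in limma 3.58.1 (R 4.3.3), with 12 residual degrees of freedom, moderated variances and Benjamini-Hochberg adjustment over all genes. An adjusted p of 0.05 was the threshold, and the study's own, an unadjusted p under 0.05 with 1.5 fold, was run beside it. Fold sizes are 2 to the power of the log2 difference, and intervals are at 95%. The script was tested on simulated data. Genes were named by rank within each direction of the difference (10) and of each knockout's effect (5), filled by the smallest p since none passed, with 7 bile acid genes and up to 4 per gene list. The members, the lists and the rule were chosen with earlier results of these data known. The precision is limited by the 3 arrays per group. Alternatives covered the arrays in the fit, the variance prior, array weights, centring, quantile normalization, dim genes, probe set handling, the replicate block, the methods' t-test and each knockout array left out, and leaving out both arrays that stood apart was added after seeing the data. Figures were drawn with matplotlib 3.10.9 in Python 3.11.15.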

Additional observations from a re-analysis of the deposited data

How the results depend on the processing

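The difference between the knockouts had 1 gene at an adjusted p under 0.05 with array weights, 1 after quantile normalization and 0 to 1 when each knockout array was left out, and 94 to 230 at the study's thresholds without single arrays. For GW4064 in liver knockout livers the adjusted count was 7 with array weights (Atxn7, Csad, Dnase2a, Fars2, Orc6, Stbd1 and Ugdh), 1 with the replicate block, 2 without both arrays that stood apart (Csad and Trim24) and 0 to 2 without single arrays. At the study's thresholds it was 87 over every probe set, 36 by the methods' t-test and 50 to 67 without single arrays. In whole-body knockout livers the adjusted count was 1 without both arrays (Pls1) and 0 to 4 without single arrays. At the study's thresholds it was 28 with array weights, 21 without both arrays, 113 over every probe set, 11 by the methods' t-test and 17 to 171 without single arrays. The count shared with WT was 11 to 21 for liver knockout. For whole-body knockout it was 1 with a trended and robust prior, 3 with array weights, 2 without both arrays and 0 to 13 without single arrays. The cause was not tested.

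Of 3756 values over 165 genes and 23 alternatives, 17 in 8 genes had the other sign. They were Nr1h4 (-0.067 with array weights, -0.074 without both arrays, -0.13 to 0.12 without single arrays), Abcb11 (-0.011 without both arrays, -0.011 to 0.35 without single arrays), C6 (-0.036, and -0.036 to 1.08), Hao2 (0.014, and -1.37 to 0.014) and Tyms (-0.020 as the mean of its probe sets). Without single arrays Idi1 lay between -0.60 and 0.11, Krt19 between -0.0021 and 0.18 and Fdps between -0.64 and 0.084. Of 480 list medians, 7 in 5 lists moved by more than the spread between arrays. They were bile acid transport, fatty acid synthesis, clock, NF-kB targets and Kupffer cell markers. That spread took in every knockout array, so a list whose spread comes from 1 array can move and not be counted. Without a single array the medians of the male-biased, female-biased and cholesterol lists went from 1.03, -0.53 and -0.14 to -0.07, 0.01 and 0.18.

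Nothing in the labels says that replicate numbers mark shared mice, litters or days. Of 18 same-numbered pairs, 5 correlated above 0.1 (-0.207 to 0.339), and the numbers were not taken to pair the samples. Between GW4064 and vehicle of 1 genotype all 6 pairs were positive, at 0.339, 0.141 and 0.0658 in liver knockout and 0.0951, 0.220 and 0.207 in whole-body knockout livers, with 4 above 0.1. With the replicate block, the difference had 0 adjusted genes, liver knockout 1 (Csad, adjusted p = 0.0171) and whole-body knockout 0. Of the arrays, 4 of 6 in liver knockout and 6 of 6 in whole-body knockout correlated best with the array of their own number.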
